A study of Mus musculus with 4 samples.

Results

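Collagen genes were selected from the gene table by name: a row was a member if its symbol was Col, a number, the letter a and a further number. The rule used no measured value and found 42 of the 16846 rows. The members were grouped by the kind of structure that their protein builds, with 11 in the fibrillar class, 8 in the basement membrane class and 23 in the remaining class, called other here. After the low-count filter, 30 members could be tested, of which 9 were fibrillar, 7 basement membrane and 14 other.

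The RNA came from HT22, an immortalised line derived from mouse hippocampal neurons, and the study asked which pathways follow the long noncoding RNA Ntoco. Ntoco knockdown cells carried a short hairpin RNA (shRNA) against Ntoco, Ntoco overexpression cells carried a vector with Ntoco, empty vector cells carried the vector alone, and shRNA control cells carried a control hairpin. Each group had 2 libraries, numbered 1 and 2, whereas the labels list 1 sample per group, so nothing says that they came from separate cultures. The p-values therefore measure only the spread between these libraries, which may be technical. The titles name HT22, HT23, HT24 or HT25 cells by group, while the source and cell line fields give HT22 throughout. The label of the overexpression group has Lv and the column names have pcDNA, so the delivery of Ntoco is uncertain, and so is how the empty vector and shRNA control cells differ in handling. No clone, passage or day is given. Ntoco itself has 0 rows in the table, so neither its knockdown nor its overexpression could be checked. Total counts were 18452588 to 19859041 per library.

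Collagens are triple helices of 3 chains that are made in the endoplasmic reticulum, hydroxylated and folded there, exported, trimmed and crosslinked outside the cell. Fibrillar collagens pack side by side into fibres that bear tension, and type I, made of Col1a1 and Col1a2 chains, is the main one of skin and bone. Basement membrane collagens form sheets under epithelia and around vessels, with type IV as the network. In the brain, collagen is concentrated in vessels and meninges.

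The sequences just before the transcription starts are shown for the genes on which the results below turn, to place each gene in the genome. They are from RefSeq (build GRCm38.p6), are written 5′ to 3′ on the gene's own strand, and hold the last 150 bases before the start. Capitals mark CCAAT (the CCAAT box) and GGGCGG (the GC box) on either strand, and TATAAA (the TATA box) was searched in the same way and was in none of them. Col1a2 encodes the second chain of type I, Col6a1, Col6a2 and Col6a3 the 3 chains of the beaded filaments of type VI, and Col18a1 a basement membrane collagen that releases endostatin. Col18a1 has starts at 2 places, which the counts per gene do not separate, and Col6a2 is shown for the upstream of its 2 starts.
Col1a2, chr6:4505468-4505617, plus strand: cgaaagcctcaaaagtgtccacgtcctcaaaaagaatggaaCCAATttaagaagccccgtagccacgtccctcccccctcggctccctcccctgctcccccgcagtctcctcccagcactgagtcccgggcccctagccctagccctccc
Col6a1, chr10:76726045-76726194, minus strand: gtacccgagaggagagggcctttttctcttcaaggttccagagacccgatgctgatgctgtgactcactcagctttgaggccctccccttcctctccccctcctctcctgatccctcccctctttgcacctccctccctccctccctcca
Col6a2, chr10:76623631-76623780, minus strand: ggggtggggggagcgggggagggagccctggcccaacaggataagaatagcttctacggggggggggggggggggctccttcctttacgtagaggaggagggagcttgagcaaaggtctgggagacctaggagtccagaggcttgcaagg
Col6a3, chr1:90843972-90844121, minus strand: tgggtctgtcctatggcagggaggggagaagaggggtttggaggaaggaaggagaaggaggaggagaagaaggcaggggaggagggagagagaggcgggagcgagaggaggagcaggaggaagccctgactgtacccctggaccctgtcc
Col18a1, upstream start, chr10:77166531-77166680, minus strand: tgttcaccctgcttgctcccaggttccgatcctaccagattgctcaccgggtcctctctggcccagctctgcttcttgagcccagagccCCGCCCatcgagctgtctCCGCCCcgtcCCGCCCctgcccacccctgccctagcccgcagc
Col18a1, downstream start, chr10:77113706-77113855, minus strand: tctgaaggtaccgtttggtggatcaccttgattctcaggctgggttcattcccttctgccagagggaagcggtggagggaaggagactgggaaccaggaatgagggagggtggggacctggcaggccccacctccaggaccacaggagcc
Col1a2 had a CCAAT box and the upstream Col18a1 start had 3 GC boxes in these windows. The 3 type VI genes, which lie on chromosome 10 (Col6a1 and Col6a2) and chromosome 1 (Col6a3), had no match in the bases shown. The downstream Col6a2 start, not shown, had 3 GC boxes in its window, and the full window of the upstream start had 1.

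Col4a1 and Col4a2 encode the chains of the common type IV network and run away from each other from overlapping starts on chromosome 8. By the starts used for the sequence windows, Col4a1 starts at 11312826 on the minus strand and Col4a2 at 11312805 on the plus strand. The transcripts thus overlap at their starts. The annotated Col4a1 gene reaches further, to 11312889, so the size of the overlap depends on the start taken. The 30 bases that open with the CCAAT box before the Col4a2 start, which Col4a1 transcribes from the other strand, are shown as the plus strand. Reads from the overlap cannot be given to either gene without the strand setting of the counting.
Col4a1 and Col4a2, chr8:11312773-11312802: CCAATttgttggcgctgccccctcccctcg
Across the 36 windows of 250 bases that were given for 33 of the 42 collagen genes, 22 (61.1%) held a GC box, against 32.7% of 32851 windows of all genes. CCAAT was in 13 windows (36.1%), against 33.8% of all, and TATAAA in 3 (8.33%), against 12.4% of all. Over the 26 windows of tested collagens alone, the GC box was in 13 (50%), CCAAT in 10 (38.5%) and TATAAA in 3 (11.5%). A match is a description of letters, and no binding was measured.

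HT22 cells held a broad set of collagen mRNAs led by type I, IV, V, VI and VIII chains. Levels between genes are compared in FPKM, a count per gene length and library total. Of the 42 members, 18 averaged at least 1 FPKM over the 8 libraries and 14 averaged at least 5 FPKM. The 14 were 5 of the 11 fibrillar, 4 of the 8 basement membrane and 5 of the 23 other members. The 12 members that were not tested had at most 26 counts in total over 8 libraries. They were Col11a1 and Col27a1 (fibrillar), Col4a6 (basement membrane), and Col6a4, Col6a5, Col6a6, Col9a2, Col14a1, Col23a1, Col25a1, Col26a1 and Col28a1 (other).

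Col1a2 was the most abundant collagen in every library. Its level was 711 and 243 FPKM in the knockdown, 356 and 311 FPKM in the overexpression, 191 and 355 FPKM in the empty vector and 503 and 533 FPKM in the shRNA control libraries. The 2 knockdown libraries lay above and below both shRNA control libraries. Col1a1, its partner chain, had 194 and 36.8 FPKM in the knockdown, 64.7 and 67.7 FPKM in the overexpression, 38.0 and 69.2 FPKM in the empty vector and 118 and 107 FPKM in the shRNA control libraries. The chains shared their extremes, with knockdown library 1 highest and knockdown library 2 and empty vector library 1 lowest. Type I fibres in tissue hold more of the first protein chain than of the second. The Col1a1 to Col1a2 ratio of FPKM was 0.15 to 0.27 in these libraries. That is a ratio of mRNA per length, which does not give the ratio of protein chains.

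Type V chains, which sit inside type I fibres and limit their width, were next among the fibrillar members. Col5a1 averaged 68.9 FPKM over the 8 libraries, Col5a2 20.7 FPKM and Col5a3 10.3 FPKM. Col5a1 was in a narrow band, with 89.1 and 80.8 FPKM in the knockdown, 46.5 and 43.5 FPKM in the overexpression, 56.4 and 68.3 FPKM in the empty vector and 82.1 and 84.3 FPKM in the shRNA control libraries. Both overexpression libraries were below both empty vector libraries for this gene. Col11a2, a chain of the type XI collagen of cartilage, averaged 1.52 FPKM. Col3a1, the usual companion of type I in soft tissue, averaged 0.128 FPKM, and Col2a1, the cartilage collagen, averaged 0.111 FPKM.

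Type IV chains led the basement membrane class. Col4a1 had 92.1 and 73.1 FPKM in the knockdown, 54.9 and 75.9 FPKM in the overexpression, 60.0 and 114 FPKM in the empty vector and 151 and 120 FPKM in the shRNA control libraries. Col4a2 had 84.6 and 77.5 FPKM in the knockdown, 44.3 and 54.3 FPKM in the overexpression, 50.4 and 80.0 FPKM in the empty vector and 102 and 90.3 FPKM in the shRNA control libraries. For both chains the shRNA control libraries were the highest pair. Col18a1 averaged 19.4 FPKM and Col4a5, a chain of the network of kidney and smooth muscle basement membranes, averaged 11.6 FPKM. Its partner Col4a6, whose start, as used for the sequence windows, lies 1343 bases away on chromosome X in the opposite direction, was not tested. Col4a3 and Col4a4, which form the kidney network with Col4a5, reached at most 0.0658 and 0.0528 FPKM in any library.

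In the other class, the type VI chains varied most among the abundant members. Col6a1 had 216 and 56.4 FPKM in the knockdown, 94.8 and 30.6 FPKM in the overexpression, 21.0 and 51.7 FPKM in the empty vector and 89.7 and 79.4 FPKM in the shRNA control libraries. Col6a2 had 87.0 and 27.8 FPKM in the knockdown, 36.2 and 13.0 FPKM in the overexpression, 15.5 and 22.2 FPKM in the empty vector and 32.7 and 35.8 FPKM in the shRNA control libraries. Both chains were higher in library 1 than in library 2 of the knockdown and of the overexpression groups, and lower in library 1 of the empty vector. Col6a3, the chain with the longest globular part, had 81.4 and 18.3 FPKM in the knockdown, 48.7 and 34.7 FPKM in the overexpression, 10.7 and 63.0 FPKM in the empty vector and 88.1 and 78.8 FPKM in the shRNA control libraries. Its lowest libraries were empty vector 1 and knockdown 2. Col8a1, a short-chain collagen of vessel walls and the cornea, averaged 46.8 FPKM. On the scale of counts relative to the TMM-scaled library size (CPM), it had 160 and 251 in the knockdown, 261 and 262 in the overexpression, 152 and 407 in the empty vector and 325 and 97.8 in the shRNA control libraries. The shRNA control libraries were among both its higher and its lowest values. Col16a1, which associates with fibrils, averaged 12.4 FPKM.

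Partner chains of the named members were mostly scarce. Col5a2 had 140 and 74.9 CPM in the knockdown, 95.5 and 172 CPM in the overexpression, 147 and 150 CPM in the empty vector and 151 and 166 CPM in the shRNA control libraries. Its lowest library was knockdown 2. Col9a1, the partner of Col9a3 in type IX, had 5.86 and 0.641 CPM in the knockdown, 0.979 and 0.331 CPM in the overexpression, 0.267 and 0.567 CPM in the empty vector and 1.10 and 2.28 CPM in the shRNA control libraries. Col8a2, the partner of Col8a1, had 0.209 and 0.641 CPM in the knockdown, 0.361 and 0.441 CPM in the overexpression, 0.481 and 0.309 CPM in the empty vector and 0.524 and 0.623 CPM in the shRNA control libraries. Col9a1 was highest in knockdown library 1, and Col8a2 overlapped between the groups of both Ntoco comparisons and was below both shRNA control libraries in both empty vector libraries.

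**Figure D1:**
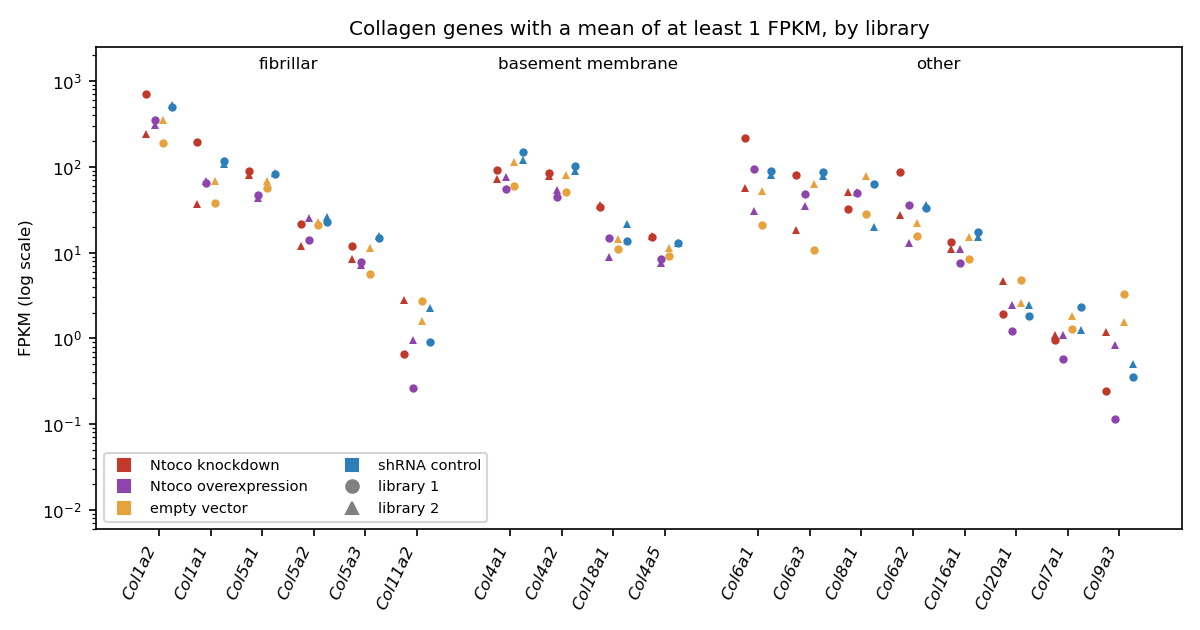
Level in FPKM (log scale) of the 18 collagen genes with a mean of at least 1 FPKM, by class; colours are the 4 groups, circles library 1 and triangles library 2. Col1a2 is highest in every library, and the Col6a1 points spread from 21.0 to 216 FPKM.

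The summed level of the 42 collagens was highest in knockdown library 1 and lowest in empty vector library 1. The sum was 1691 and 761 FPKM in the knockdown, 853 and 748 FPKM in the overexpression, 542 and 987 FPKM in the empty vector and 1318 and 1248 FPKM in the shRNA control libraries. As a share of all counts, collagens were 0.990% and 0.467% in the knockdown, 0.505% and 0.453% in the overexpression, 0.334% and 0.611% in the empty vector and 0.810% and 0.767% in the shRNA control libraries. The 95% Wilson interval of the lowest share was 0.331% to 0.336% and that of the highest was 0.986% to 0.995%, and these cover counting error only. The empty vector libraries had the smaller sums, on average 764 ± 315 FPKM against 1283 ± 49.1 FPKM in the shRNA control (SD, n = 2), with no overlap and an exact two-sided permutation p of 0.333. That is the smallest p that 2 libraries against 2 allow. In bulk RNA, fewer cells with collagen mRNA and less of it per cell cannot be told apart.

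Fibrillar members were the largest class by FPKM in every library. They held 50.4% to 61.5% of summed collagen FPKM over the 8 libraries, basement membrane members 13.4% to 26.6% and other members 17.7% to 28.2%. Col1a2 alone held 31.9% to 42.7%. Its share was 41.8% and 41.5% in the overexpression, against 35.2% and 36.0% in the empty vector libraries. In the shRNA control libraries it was 38.2% and 42.7%, on both sides of the overexpression values. The basement membrane share was 14.4% and 19.6% in the overexpression, against 24.1% and 22.2% in the empty vector libraries. It was 21.1% and 19.7% in the shRNA control libraries. For both shares the overexpression and empty vector libraries did not overlap, and each exact two-sided permutation p was 0.333. In the same comparison the Col1a1 share did not overlap either, while the fibrillar and other shares did.

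**Figure D2:**
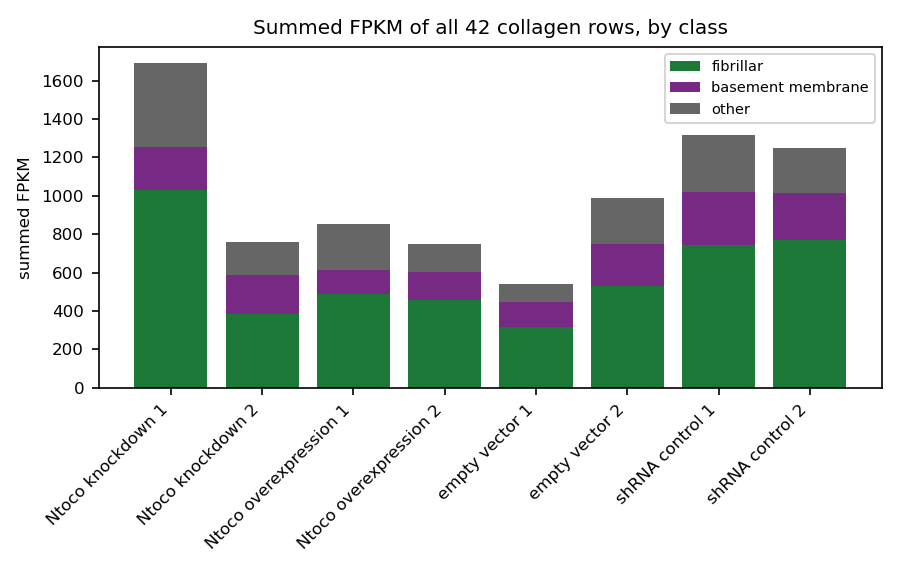
Summed FPKM of the 42 collagen rows in each of the 8 libraries, with bars stacked by class (fibrillar, basement membrane, other). The bars reach 1691 FPKM in knockdown library 1 and 542 FPKM in empty vector library 1, and fibrillar members are the largest part of each bar.

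How far a class differed within a pair of libraries is described here without a test. The median absolute log2 difference between knockdown libraries was 1.25 over the tested fibrillar, 0.27 over the basement membrane and 1.19 over the other members, against 0.38 over all 12115 genes tested. Between the empty vector libraries it was 0.37, 0.36 and 0.84 for the 3 classes in the same order, against 0.31 over all genes. Between the overexpression libraries the fibrillar median was 0.21, the basement membrane median 0.29 and the other median 0.67, against 0.24 over all genes. Between the shRNA control libraries they were 0.14, 0.38 and 0.30, against 0.24 over all genes. The median of the other class was above that of all genes in all 4 groups, and that of the fibrillar class in the knockdown and the empty vector. That of the basement membrane class was above it in the overexpression, the empty vector and the shRNA control. The class medians include members with few counts.

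Some members ran opposite to type I. Col19a1, a scarce collagen made by some neurons and muscle, had 2.25 and 23.9 CPM in the knockdown, 4.22 and 5.90 CPM in the overexpression, 27.9 and 16.4 CPM in the empty vector and 3.98 and 7.73 CPM in the shRNA control libraries. Its highest libraries, empty vector 1 and knockdown 2, were the lowest for Col1a1 and Col1a2. These 2 libraries were the 2 highest of 8 for Col11a2, Col19a1, Col20a1 and Col24a1, which are 4 of the 30 tested collagens (13.3%), against 11.6% of all genes tested. They were the 2 lowest for Col1a1, Col1a2, Col6a3, Col12a1 and Col17a1, which are 5 of 30 (16.7%), against 13.2% of all genes. The pair was chosen after the values were seen, and its shares among collagens were near those of all genes.

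**Figure D3:**
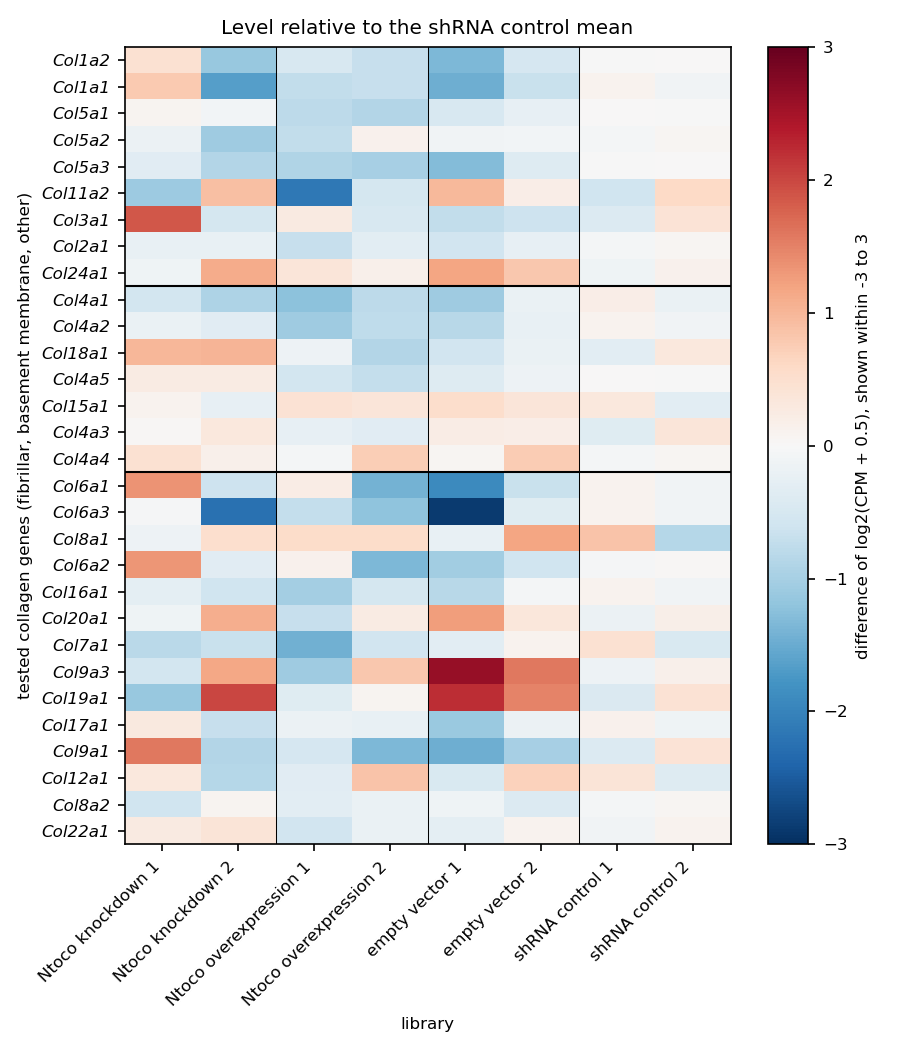
Difference of log2(CPM + 0.5) from the mean of the shRNA control libraries for the 30 tested collagens (rows, by class) in 8 libraries (columns); red is higher and blue lower. Knockdown library 2 and empty vector library 1 share blue rows such as Col1a1, Col1a2 and Col6a3 and red rows such as Col19a1, while Col18a1 is red in both knockdown libraries.

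In the comparison of knockdown with shRNA control, which asks what follows when Ntoco is lowered, no collagen passed the test. edgeR's quasi-likelihood test with Benjamini-Hochberg adjustment called 0 of the 30 tested members at an adjusted p under 0.05 (0% of all genes tested). DESeq2 also called 0 members (0.0979% of all genes). At an unadjusted p under 0.05, 1 member was higher and 0 were lower in the knockdown (3.12% of all genes in either direction). Both knockdown libraries were above both shRNA control libraries for 4 of 30 members (15.1% of all genes) and below both for 7 of 30 (14.1% of all genes). The median log2 ratio was 0.0043 over the fibrillar, 0.25 over the basement membrane and 0.23 over the other members tested, against 0.01 over all genes. The direction of these medians was not stable. Without knockdown library 1 the fibrillar median was -0.90 and the other median -0.48, and without knockdown library 2 the other median was -0.095 and the fibrillar median -0.19. Over members with a mean of at least 100 counts the basement membrane median was -0.012.

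Col18a1 had the smallest p of the 30 members in this comparison. It had 243 and 250 CPM in the knockdown, 110 and 66.0 CPM in the overexpression, 82.4 and 106 CPM in the empty vector and 98.1 and 152 CPM in the shRNA control libraries. Both knockdown libraries were above the other 6 libraries. The log2 ratio of knockdown to shRNA control was 0.98 (SE 0.31), a 1.97-fold higher level, with an edgeR adjusted p of 0.992 and a DESeq2 adjusted p of 0.706. It ranged from 0.70 to 1.33 as each library was left out in turn. Col18a1 is on chromosome 10 (77052178 to 77166530).

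Col4a1, on chromosome 8 (11198423 to 11312889), had 596 and 462 CPM in the knockdown and 1000 and 769 CPM in the shRNA control libraries, without overlap. Its log2 ratio was -0.74 (SE 0.32), with an edgeR adjusted p of 0.992. Col4a2 had 534 and 478 CPM in the knockdown and 658 and 563 CPM in the shRNA control libraries, also without overlap. Col7a1, which anchors basement membranes to the tissue below, had 8.68 and 9.71 CPM in the knockdown and 21.8 and 11.2 CPM in the shRNA control libraries, and its log2 ratio was -0.84 (SE 0.43, edgeR adjusted p 0.992), running from -1.25 to -0.28 as each library was left out. Col18a1, higher, and Col4a1, lower, are both of the basement membrane class, so its members did not share a direction.

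Chains that assemble into one molecule were compared as ratios of FPKM, which do not depend on library size. A further ratio, Col4a5 to Col4a1, compares chains of different type IV networks and not partners. The Col4a1 to Col4a2 ratio was 1.09 and 0.94 in the knockdown, 1.24 and 1.40 in the overexpression, 1.19 and 1.42 in the empty vector and 1.48 and 1.33 in the shRNA control libraries. Both knockdown libraries were below the other 6. The Col6a1 to Col6a3 ratio was 2.65 and 3.08 in the knockdown, 1.95 and 0.88 in the overexpression, 1.95 and 0.82 in the empty vector and 1.02 and 1.01 in the shRNA control libraries. Both knockdown libraries were above the other 6, although they differed widely in the level of each chain. The mean ratio was 2.87 ± 0.30 in the knockdown and 1.01 ± 0.0075 in the shRNA control libraries (SD, n = 2), with an exact two-sided permutation p of 0.333. For Col4a1 to Col4a2 the means were 1.02 ± 0.10 and 1.41 ± 0.11, in the knockdown and in the shRNA control libraries (SD, n = 2), with the same exact permutation p of 0.333. Of 7 ratios computed, 5 did not overlap between these groups: Col4a1 to Col4a2, Col6a1 to Col6a3, Col4a5 to Col4a1, Col5a1 to Col5a2 and Col5a1 to Col5a3. By contrast, the Col1a1 to Col1a2 ratio was 0.27 and 0.15 in the knockdown and 0.24 and 0.20 in the shRNA control libraries, and the Col6a1 to Col6a2 ratio was 2.48 and 2.03 in the knockdown and 2.74 and 2.22 in the shRNA control libraries, with overlap in each. Between empty vector and shRNA control 3 of the 7 ratios did not overlap, and between overexpression and empty vector 2 of 7. Col6a1 to Col6a3, Col4a5 to Col4a1 and Col5a1 to Col5a3 were not among the ratios planned. No share without overlap was computed over other pairs of genes. The ratios are not independent, since Col4a1, Col5a1 and Col6a1 each enter 2 of them. Benjamini-Hochberg adjustment cannot bring any of them under the smallest raw exact permutation p of 0.333.

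**Figure D4:**
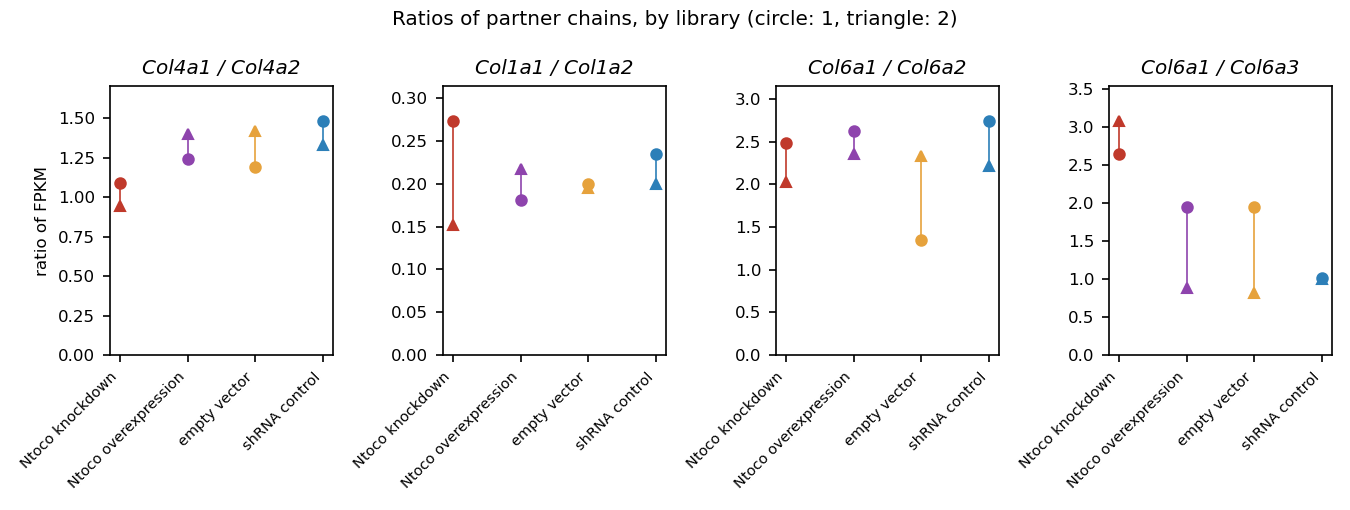
Ratio of FPKM between partner chains in each library (circle library 1, triangle library 2, joined by a line) for 4 pairs, by group. The knockdown points lie below all others for Col4a1 to Col4a2 (0.94 and 1.09) and above all others for Col6a1 to Col6a3 (2.65 and 3.08).

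In the comparison of overexpression with empty vector, which asks what follows when Ntoco is raised, edgeR again called 0 of the 30 tested members (0% of all genes tested), and DESeq2 called 0 (0.00602% of all genes). At an unadjusted p under 0.05, 3 members were lower and 0 higher (7.62% of all genes in either direction). Both overexpression libraries were below both empty vector libraries for 9 of 30 members (23.1% of all genes), and above both for 1 of 30 (24.1% of all genes), which was Col3a1. Col3a1 had only 14 and 4 counts in the overexpression and 2 and 3 counts in the empty vector libraries. The median log2 ratio was -0.17 over the fibrillar, -0.36 over the basement membrane and -0.04 over the other members tested, against -0.01 over all genes. All 7 tested basement membrane members had a log2 ratio below 0, from -1.31 to -0.08, and both libraries were below both empty vector libraries for 2 of them. Over all genes, 6113 of 12115 had a ratio below 0. The lowest, -1.31, was that of Col4a3, which was also among the 2 without overlap. Col4a3 had 4 and 3 counts in the overexpression and 9 and 9 in the empty vector libraries. Col4a4 (2 and 10 against 3 and 11 counts) and Col15a1 (15 and 13 against 16 and 14 counts) also rest on few counts. As each library was left out in turn, the basement membrane median ran from -0.68 to -0.071, and Col4a1 reached 0.088 and Col18a1 0.23. The fibrillar and other medians also moved with single libraries: without empty vector library 1 the fibrillar median was -0.47 and the other median -0.54, and without empty vector library 2 they were 0.17 and 0.36.

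The 3 members with the smallest p in this comparison were Col5a1, Col9a3 and Col19a1. Col5a1, on chromosome 2 (27886381 to 28039510), had 405 and 377 CPM in the overexpression and 503 and 588 CPM in the empty vector libraries, a log2 ratio of -0.48 (SE 0.17). Col9a3, a chain of the type IX collagen that coats cartilage fibrils, had 0.361 and 2.65 CPM in the overexpression, 10.5 and 4.89 CPM in the empty vector, 0.732 and 3.50 CPM in the knockdown and 1.10 and 1.51 CPM in the shRNA control libraries. Its log2 ratio was -2.36 (SE 0.98), and it ran from -4.39 to -1.54 as each library was left out. For Col19a1, whose values are given above, the log2 ratio of overexpression to empty vector was -2.13 (SE 0.91). The edgeR adjusted p was 0.598 for all 3. For Col9a3 and Col19a1, the empty vector libraries were above both shRNA control libraries, and the overexpression libraries overlapped the shRNA control. The overexpression and empty vector comparisons share the empty vector libraries.

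Neither the empty vector nor the shRNA control is labelled as targeting Ntoco, so their comparison describes the difference between the control groups. edgeR called 0 of the 30 tested members (0% of all genes tested) and DESeq2 0, while it called 2.26% of all genes. At an unadjusted p under 0.05, 1 member was higher and 1 lower (12.5% of all genes in either direction). Both empty vector libraries were below both shRNA control libraries for 16 of 30 members (26.5% of all genes) and above both for 6 of 30 (24.6% of all genes). Of the 9 fibrillar members tested, 7 were below in both libraries. The median log2 ratio was -0.68 over the fibrillar, -0.27 over the basement membrane and -0.29 over the other members tested, against -0.0029 over all genes. The fibrillar median lay between -1.04 and -0.40 as each library was left out in turn.

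Col9a3 and Col5a3 had the smallest p here. Col5a3 had 36.4 and 69.1 CPM in the empty vector and 90.2 and 91.8 CPM in the shRNA control libraries, a log2 ratio of -0.79 (SE 0.32, edgeR adjusted p 0.374) that ran from -1.32 to -0.40 as each library was left out. The log2 ratio of Col9a3 was 2.56 (SE 0.99, edgeR adjusted p 0.370). Col24a1, a scarce fibrillar collagen of bone, had 0 and 14 counts in the knockdown, 4 and 2 in the overexpression, 14 and 9 in the empty vector and 0 and 2 in the shRNA control libraries, so its log2 ratios rest on few counts. Type I was lower in the empty vector libraries without overlap: Col1a1 had 236 and 415 CPM in the empty vector and 705 and 611 CPM in the shRNA control libraries, and Col1a2 had 1044 and 1873 CPM in the empty vector and 2638 and 2692 CPM in the shRNA control libraries.

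**Figure D5:**
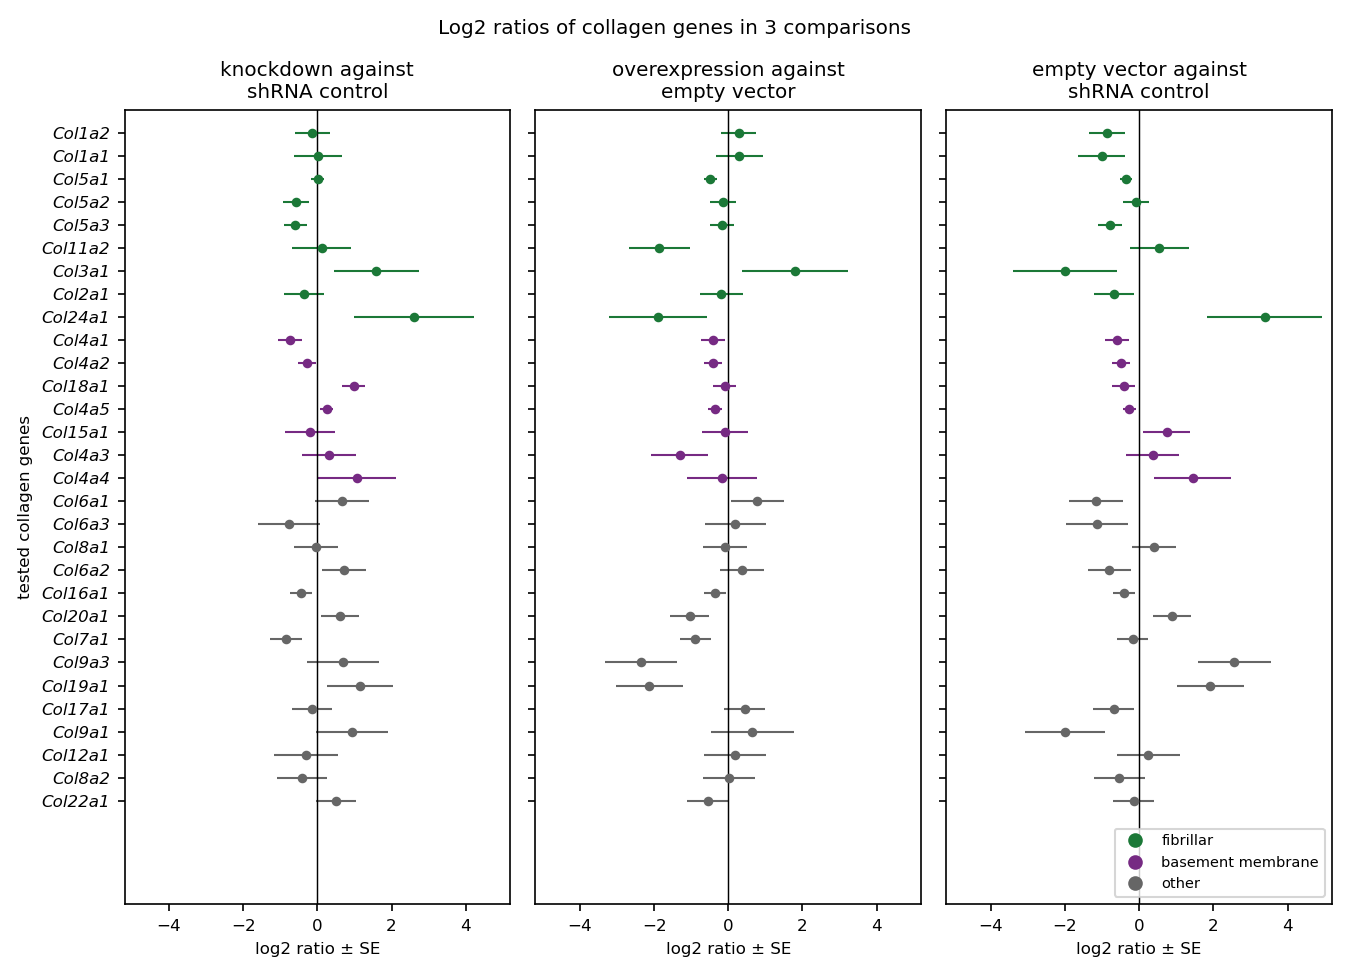
Log2 ratio with its SE (edgeR) for the 30 tested collagens in the 3 comparisons, coloured by class; the vertical line is no difference. Col18a1 stands at 0.98 in the knockdown panel, and most fibrillar members lie left of the line in the empty vector panel.

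The test of the difference between effects (overexpression over empty vector minus knockdown over shRNA control) asks whether these log2 ratios differ. It does not ask whether they have opposite signs. Both control groups are part of it, so a difference between them can enter. edgeR called 0 of the 30 tested members (0% of all genes tested) and DESeq2 called 0 (0.0918% of all genes). At an unadjusted p under 0.05, 3 were lower and 0 higher (6.92% of all genes in either direction). They were Col19a1, with a difference of -3.29 (SE 1.27, log2), Col18a1 with -1.07 (SE 0.43) and Col4a5 with -0.61 (SE 0.25), each with an edgeR adjusted p of 0.650. Col4a5 had 97.7 and 98.7 CPM in the knockdown, 56.4 and 50.6 CPM in the overexpression, 62.8 and 74.4 CPM in the empty vector and 84.1 and 81.4 CPM in the shRNA control libraries. For Col4a5, the knockdown libraries were the highest pair and the overexpression libraries the lowest.

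The enzymes and partners that make, export and anchor collagen were followed as 6 lists. The counts of called genes below are set against 0% of all genes by edgeR in each comparison. Of the list for hydroxylation and glycosylation, which holds the prolyl and lysyl hydroxylases, 12 of 15 genes were tested and edgeR called 0 in any comparison. Its medians were -0.03 in knockdown against shRNA control, 0.09 in overexpression against empty vector and 0.07 in empty vector against shRNA control (log2). Plod2, a lysyl hydroxylase, had 18.6 and 10.3 FPKM in the overexpression and 8.83 and 9.93 FPKM in the empty vector libraries, a log2 ratio of 0.61 (SE 0.30, edgeR adjusted p 0.598).

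Of the list for folding and export, all 10 genes were tested and edgeR called 0. DESeq2 called 1, Fkbp10, a collagen chaperone of the endoplasmic reticulum, in the knockdown (0.0979% of all genes by DESeq2). Fkbp10 had 12.2 and 12.7 FPKM in the knockdown and 24.3 and 22.9 FPKM in the shRNA control libraries, a log2 ratio of -0.95 (SE 0.18), with an adjusted p of 0.971 by edgeR and 0.0395 by DESeq2. Serpinh1, the collagen-specific chaperone HSP47, was at 721 to 1410 FPKM in all 8 libraries. It had 1410 and 896 FPKM in the empty vector and 880 and 721 FPKM in the shRNA control libraries, a log2 ratio of 0.59 (SE 0.26, edgeR adjusted p 0.402), while Col1a1 and Col1a2 were on the lower side there.

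Of the list for propeptide removal and crosslinking, 9 of 13 genes were tested and edgeR called 0. The medians were -0.0048 in the knockdown comparison, 0.08 in the overexpression comparison and -0.45 in the empty vector comparison (log2). Adamts14, a procollagen N-propeptidase, had 2.10 and 4.31 FPKM in the knockdown and 1.66 and 1.32 FPKM in the shRNA control libraries, a log2 ratio of 1.07 (SE 0.37, edgeR adjusted p 0.992). Lox, a lysyl oxidase that crosslinks fibrils, was under 10 counts in every library. Its relatives on the list were present over the 8 libraries. Loxl1 was at 30.6 to 78.0 FPKM, Loxl2 at 1.34 to 10.6 FPKM, Loxl3 at 3.37 to 42.5 FPKM and Loxl4 at 18.1 to 55.6 FPKM.

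Of the receptors list, 5 of 10 genes were tested and edgeR called 0. Ddr1, a receptor kinase activated by collagen, had 13.8 and 14.8 FPKM in the knockdown and 9.36 and 7.05 FPKM in the shRNA control libraries, a log2 ratio of 0.77 (SE 0.25, edgeR adjusted p 0.992). Of the fibril and matrix partners list, 7 of 13 genes were tested and edgeR called 0, while Dcn, Lum, Tnc and Nid2 were under 10 counts everywhere. Bgn, of the same list, was at 41.1 to 434 FPKM over all libraries. Fn1, the matrix glycoprotein fibronectin, had 71.1 and 80.8 FPKM in the overexpression and 132 and 120 FPKM in the empty vector libraries, a log2 ratio of -0.75 (SE 0.31, edgeR adjusted p 0.598).

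Of the TGF-beta inputs list, the signal that raises fibrillar collagen in many cells, 10 of 12 genes were tested and edgeR called 0. Smad7, an inhibitor of that signal, had 2.93 and 3.75 FPKM in the knockdown and 5.89 and 8.88 FPKM in the shRNA control libraries, a log2 ratio of -1.17 (SE 0.33, edgeR adjusted p 0.992). It had 4.26 and 5.99 FPKM in the overexpression and 7.40 and 12.4 FPKM in the empty vector libraries, a log2 ratio of -0.96 (SE 0.33, edgeR adjusted p 0.598). Both comparisons thus had Smad7 on the lower side without overlap.

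The cell type was checked against 7 marker lists, and the neuron markers were near the floor in all libraries. Of 12 neuron markers 8 had rows and 1, Syp, was tested, while Map2, Tubb3, Syt1, Nefl, Nefh, Stmn2 and Slc17a7 were under 10 counts in every library, and the list summed to 0.255 to 0.555 FPKM. Of 10 fibroblast and meninges markers 8 had rows and 5 were tested, while Dcn and Lum were under 10 counts. Fbln2, of the same list, was at 37.4 to 152 FPKM over all libraries. That list summed to 3260 and 902 FPKM in the knockdown, 2762 and 2607 FPKM in the overexpression, 568 and 2061 FPKM in the empty vector and 3823 and 2248 FPKM in the shRNA control libraries. S100a4 made up most of this sum, with 3078 and 853 FPKM in the knockdown, 2697 and 2503 FPKM in the overexpression, 518 and 1940 FPKM in the empty vector and 3697 and 2125 FPKM in the shRNA control libraries. The 2 lowest libraries of the list were empty vector 1 and knockdown 2, which were also the 2 lowest for Col1a1 and Col1a2. They were the 2 lowest for the astrocyte, the microglia and macrophage and the pericyte and smooth muscle lists as well. They were not the 2 lowest for the neuron, oligodendrocyte lineage and endothelium lists, and knockdown 2 was the highest library for endothelium (0.539 FPKM). The pair of empty vector 1 and knockdown 2 was chosen after the values were seen, and it was the 2 lowest for 13.2% of all genes tested. That share is of single genes by CPM, a measure unlike the sums of lists, and no share over sums was computed. Pdgfra, of the fibroblast list, was lowest in empty vector library 2. Mfap5, of the same list, was lowest in empty vector library 1 (2.58 FPKM) and highest in the knockdown libraries (5.29 and 5.31 FPKM). Pericyte and smooth muscle markers summed to 63.6 and 39.0 FPKM in the knockdown, 44.1 and 55.6 FPKM in the overexpression, 35.3 and 90.4 FPKM in the empty vector and 78.7 and 68.8 FPKM in the shRNA control libraries, with Rgs5, Tagln and Myh11 under 10 counts. Astrocyte markers summed to 21.8 and 6.01 FPKM in the knockdown, 16.7 and 13.8 FPKM in the overexpression, 3.70 and 14.0 FPKM in the empty vector and 20.6 and 19.0 FPKM in the shRNA control libraries. Microglia and macrophage markers summed to 0.679 to 2.66 FPKM, oligodendrocyte lineage markers to 1.97 to 2.91 FPKM and endothelium markers to 0.105 to 0.539 FPKM. edgeR called 0 genes of these 7 lists in any comparison. The part that other cell types or cell state have in the collagen differences was not tested.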

How the data were processed

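The authors deposited a table of raw gene counts and a table of FPKM values. Dividing the counts by 1 length per gene and by the library total gave the deposited FPKM, within a tolerance of 0.01, in 12615 of 12615 genes with a count in each library. Per the labels' protocols, libraries were made from total RNA with a stranded mRNA kit. Trimmomatic, HISAT2, Cufflinks, HTSeq and DESeq, and build mm10, are listed per the submitters' processing notes. Versions, roles, annotation and strand setting were not given in the sources used here, so reads of overlapping genes on opposite strands cannot be told apart.

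The role written in each column name gave its group, and 0 columns were left out. The filterByExpr filter of edgeR (minimum count 10) kept 12115 genes, which were scaled with TMM. The test was the quasi-likelihood F-test of edgeR 4.0.16, fitted on 4 groups together, with Benjamini-Hochberg adjustment over all genes tested and a threshold of 0.05. SE is the absolute log2 ratio divided by the square root of F. DESeq2 1.42.0 and other settings were alternatives. The procedure was checked on simulated data.

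Values are given for the 3 most abundant members per class, the 3 with the smallest p per comparison and their chain partners. In each of the lists for pathways and cell types, members with the smallest p were named. Others, such as Col16a1 and the levels of Lox and its relatives, Bgn and Fbln2, were chosen after their values were seen. The members and lists were chosen with earlier results of these data known. Gene positions are from RefSeq (GRCm38.p6), 1-based.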

Additional observations from a re-analysis of the deposited data

How the results depend on the processing

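edgeR and DESeq2 called 0 collagens in every setting tried, which were DESeq2, DESeq2's size factors in edgeR, no low-count filter, fits of the 2 compared groups alone, the replicate block and leaving out each library. Over all genes, DESeq2 called 15 in the knockdown, 1 in the overexpression and 281 in the empty vector comparison and 12 in the difference of effects. Fits of only the 2 groups called 1 gene in the overexpression and 128 in the empty vector comparison, and the table without a filter called 3 in the empty vector comparison. The knockdown basement membrane median was 0.29 by DESeq2, 0.28 without a filter, 0.029 in the 2-group fit and -0.012 over members with a mean of at least 100 counts. The knockdown median of other members was 0.62 by DESeq2 and 0.61 without a filter. The empty vector basement membrane median was -0.41 in the 2-group fit and -0.46 over members with at least 100 counts. In the difference of effects, the basement membrane median was -0.85 by DESeq2, -0.84 without a filter and -0.37 over members with at least 100 counts, and that of other members was -0.31 by DESeq2 and -0.30 without a filter. By summed counts instead of FPKM, the fibrillar share was 55.2% in the shRNA control and 56.5% in the overexpression, and the basement membrane share 21.9% in the shRNA control and 24.8% in the empty vector. The cause of these moves was not tested.

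In the knockdown comparison, leaving out each library in turn gave 0 to 1 genes called over all genes and class medians of -0.90 to 0.0039 (fibrillar), 0.15 to 0.27 (basement membrane) and -0.48 to 0.39 (other). Single log2 ratios that changed sign were Col1a2 -1.14 to 0.45, Col1a1 -1.66 to 0.78, Col5a1 -0.093 to 0.088, Col24a1 -3.16 to 5.76, Col6a1 -0.64 to 1.34, Col8a1 -0.67 to 1.07, Col6a2 -0.35 to 1.34, Col9a3 -0.83 to 1.41, Col19a1 -1.38 to 2.02, Col9a1 -1.40 to 1.79 and Col8a2 -1.43 to 0.15. In the overexpression comparison, leaving out each library in turn gave 0 to 25 genes called over all genes and class medians of -0.47 to 0.17 (fibrillar), -0.68 to -0.071 (basement membrane) and -0.54 to 0.36 (other). Single log2 ratios that changed sign were Col1a2 -0.074 to 0.77, Col1a1 -0.047 to 0.76, Col5a2 -0.64 to 0.21, Col5a3 -0.56 to 0.36, Col4a1 -0.78 to 0.088, Col18a1 -0.51 to 0.23, Col6a1 -0.25 to 1.55, Col6a3 -0.58 to 1.92, Col8a1 -0.64 to 0.78, Col6a2 -0.55 to 0.94, Col9a1 -0.33 to 1.28 and Col8a2 -0.26 to 0.37. In the empty vector comparison, leaving out each library in turn gave 0 to 97 genes called over all genes and class medians of -1.04 to -0.40 (fibrillar), -0.40 to -0.065 (basement membrane) and -0.65 to -0.021 (other). Single log2 ratios that changed sign were Col8a1 -0.47 to 1.51 and Col7a1 -0.58 to 0.39. In the difference of effects, leaving out each library in turn gave 0 to 1 genes called over all genes and class medians of -0.16 to 0.73 (fibrillar), -0.72 to -0.082 (basement membrane) and -0.47 to 0.27 (other). A left-out library leaves its group with 1, which is assumed to vary like the rest.

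Correlations of deviations between same-numbered libraries ran from -0.364 (knockdown with empty vector) to 0.357 (knockdown with shRNA control). Their signs differed, so same-numbered libraries did not deviate in a common direction across all groups. Whether same-numbered libraries of the knockdown and the shRNA control were handled together was not tested. The numbers are used here as names of libraries, and the main fit did not pair them. With the replicate block, edgeR called 0 collagens in each comparison, and the log2 ratio of Col1a1 in the knockdown was -0.10 and that of Col8a2 in the overexpression comparison -0.011, each on the other side of 0.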
